A study of Mus musculus with 19 samples.

Results

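The immunity-related GTPases (IRGs) are interferon-inducible GTP-binding proteins of mouse cells, known for loading onto and disrupting the vacuoles in which intracellular parasites and bacteria live. The regulatory IRGs Irgm1, Irgm2 and Igtp (also called Irgm3) sit on the cell's own membranes and hold the effector IRGs in an inactive state, whereas the effectors Iigp1 (Irga6), Tgtp1 and Tgtp2 (both Irgb6) load onto the target vacuole. Interferon gamma drives the family, in part through the transcription factor IRF1, and proteins of the autophagy conjugation machinery guide the effectors to their targets. These 6 genes were taken by symbol, after the Ensembl gene identifiers were matched to mouse symbols, and are 6 of the 48795 gene rows measured.

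Expression was measured by bulk RNA-seq in 19 primary sarcomas, 11 from Rag2-/- mice, which cannot make mature T or B cells, and 8 from Rag2+/- littermates, which can. In both groups a tumor was started in the gastrocnemius muscle of male or female mice aged 6 to 10 weeks by an adenovirus carrying Cas9 and a guide RNA against Trp53 (Adeno-sgp53-Cas9), followed by 300 µg of the carcinogen 3-methylcholanthrene (MCA) in sesame oil at 6 µg/µl. The mice received no treatment, and the tumors were harvested at about 70 to 150 mm3. The targeting of Trp53 and the carcinogen are therefore shared by both groups. Each tumor is its own transformed population, and the whole tumor was sequenced, with the host cells and muscle it held. The comparison of the genotypes asks how a tumor differs when it grows without the adaptive immune system. Values are log2(upper-quartile normalized FPKM + 0.1), where FPKM is the fragment count scaled for transcript length and library size, so that a gene with no fragment is listed at -3.32. Tumors are named by their library codes, S41 to S51 for Rag2-/- and S52 to S60, without S57, for Rag2+/-.

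The libraries held an estimated 25000000 to 33700000 fragments on genes in 18 tumors and 5200000 in S41, as read from the spacing of the lowest values. The fewest fragments estimated on any of the 6 genes in any tumor were 79.9, for Tgtp1 in S41, so that counting error was small beside the differences between tumors. The Rag2 gene itself was listed between -2.05 and 0.36 with a median of -0.16 in the Rag2-/- tumors and between -2.33 and -0.57 with a median of -1.13 in the Rag2+/- tumors, so it was not lower in the tumors labelled Rag2-/-. The table has 1 value for the whole gene, and which part of Rag2 the reads came from was not tested. The mean level of 9 T cell genes lay between -2.38 and -1.34 in the Rag2-/- tumors and between 0.35 and 2.69 in the Rag2+/- tumors, with no overlap. The mean level of 8 skeletal muscle genes ranged from 4.86 to 12.85 with a median of 8.75 in Rag2-/- tumors and from 7.17 to 13.79 with a median of 11.36 in Rag2+/- tumors. The mean level of 7 mesenchymal and fibroblast genes ranged from 5.38 to 8.17 over all tumors.

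Irgm1 (ENSMUSG00000046879) lies on the minus strand of chr11:48861968-48871683 in GRCm38, as annotated by GENCODE. Tgtp1 (ENSMUSG00000078922) and Tgtp2 (ENSMUSG00000078921) lie near it on the same strand, at chr11:48985327-48994172 and chr11:49057194-49064206. Igtp (ENSMUSG00000078853) and Irgm2 (ENSMUSG00000069874) overlap on the plus strand, at chr11:58199556-58207591 and chr11:58199618-58222782. Iigp1 is the only one of the 6 on another chromosome. Their closeness sets a limit on how far reads can be told apart. The longest transcripts of Tgtp1 and Tgtp2 were identical at 2804 of 2810 aligned bases, and 71.3% of the 150-base windows of Tgtp1 also occurred in Tgtp2, so the split of reads between these copies is uncertain and their sum is given beside them. Igtp and Irgm2 share 162 exonic bases, and Tgtp1 shares 223 of its 3205 exonic bases with Gm12185, a further IRG gene on the same strand. No 150-base window was shared between any other pair of the 6.

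Promoter sequences are shown because the genes are controlled by interferon and varied together in these tumors. RefSeq start-site windows in GRCm38.p6, each from 250 bases before to 50 after the start, were matched for 5 of the 6 genes, namely Irgm1, Irgm2, Igtp, Tgtp1 and Tgtp2. They were searched on both strands for GAAANNGAAA, the paired half-sites of the interferon-stimulated response element (ISRE) bound by IRF1 and its relatives, and for TTCNNNGAA, the interferon gamma activated site (GAS). The stretches below run 5′ to 3′ on the strand of the gene, and capitals mark the letters that match either pattern. Irgm2, Igtp, Tgtp1 and Tgtp2 are shown from 150 to 13 bases before the start, at chr11:58214827-58214964, chr11:58199406-58199543, chr11:48992259-48992396 and chr11:49064225-49064362. Irgm1 is shown for 30 bases only, at chr11:48871428-48871457, because an exon of another annotated transcript of the gene covers its start region.
Irgm1: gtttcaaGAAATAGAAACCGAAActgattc
Irgm2: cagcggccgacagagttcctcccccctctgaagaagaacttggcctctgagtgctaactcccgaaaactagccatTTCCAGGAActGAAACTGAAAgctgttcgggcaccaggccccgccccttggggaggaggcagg
Igtp: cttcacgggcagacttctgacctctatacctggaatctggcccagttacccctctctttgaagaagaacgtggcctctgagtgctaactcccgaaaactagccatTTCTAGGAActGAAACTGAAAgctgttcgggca
Tgtp1: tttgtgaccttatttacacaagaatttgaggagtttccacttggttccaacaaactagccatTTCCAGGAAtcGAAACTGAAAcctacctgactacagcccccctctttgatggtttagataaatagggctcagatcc
Tgtp2: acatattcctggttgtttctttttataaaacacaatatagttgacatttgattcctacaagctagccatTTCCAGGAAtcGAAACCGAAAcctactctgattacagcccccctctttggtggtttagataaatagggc

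All 5 windows held the ISRE letters, against 3.44% of the 32851 windows in the table, and 4 of the 5 also held the GAS letters, against 8.30%. The letters were not particular to these genes. The ISRE letters also stood in 5 of the 5 windows matched for guanylate-binding proteins, a related interferon-induced family, and in 2 of the 6 matched for further IRG genes, and the GAS letters in 2 and 1 of these. In Irgm2, Igtp, Tgtp1 and Tgtp2 the GAS letters stood 2 bases before the ISRE letters. That arrangement was read from these 4 windows, so their own matches were fixed in advance. In the whole table it was found in 5 windows, those of these 4 genes and of Gm12185, which RefSeq also names Irgb2b1. In Irgm1 the ISRE letters occurred in 2 overlapping copies, from 30 to 15 bases before the start, and the GAS letters were not in the window. The windows resemble one another and are not independent. The stretches of Irgm2 and Igtp aligned over 95 columns with 88 identical bases, and those of Tgtp1 and Tgtp2 over 100 columns with 90.

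One Rag2-/- tumor stood apart from all others in every one of the 6 genes. In S51, Igtp was at 966 normalized FPKM, Iigp1 at 647, Irgm1 at 470.5, Irgm2 at 348, Tgtp2 at 201 and Tgtp1 at 94.0. Each of these was higher than in any of the other 18 tumors, by 2.04 log2 units for Tgtp2 at the least and 3.73 for Igtp at the most. In S51, 1.04% of the 12826 genes tested exceeded every other tumor by more than 1 log2 unit, and 6 of the 6 IRGs did. That share was 2.42% in S46, 1.15% in S56 and at most 0.11% in each other tumor, so S51 also stood out beyond these genes. Summed over the 6 genes, S51 held 2726 normalized FPKM, 7.96 times the next highest tumor, S55, at 342. S51 was sequenced to an ordinary depth, an estimated 27100000 fragments, but it was not among the 15 tumors with values in the study's published source data, and neither were S41, S46 and S56. The paper states that samples failing QC or short of RNA or DNA were dropped, and does not name them. The genotype tests of the 6 genes and of the lists, and the correlations, are therefore given with and without S51.

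**Figure D1:**
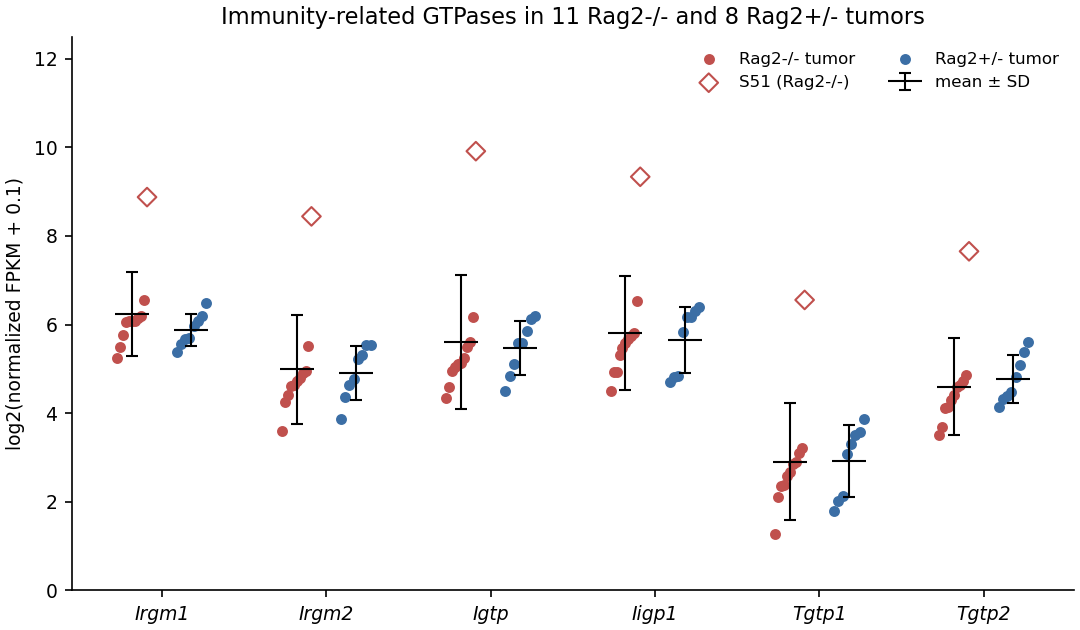
Level of each of the 6 genes (y axis, log2 of normalized FPKM + 0.1) in 11 Rag2-/- tumors (red) and 8 Rag2+/- tumors (blue), with the mean and SD of each group in black. The open diamond is S51, which lies 2.04 to 3.73 log2 units above the next tumor, while the other 18 tumors of both genotypes overlap in every gene.

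Irgm1, a regulatory IRG needed for resistance to many intracellular pathogens, was the most highly expressed of the 6 in most tumors. It ranged from 5.24 to 8.88 with a median of 6.08 in the 11 Rag2-/- tumors, and from 5.38 to 6.50 with a median of 5.84 in the 8 Rag2+/- tumors. Apart from S51, the highest Rag2-/- tumor was S43 at 6.55, so that the genotypes covered the same range. Irgm2, a regulatory IRG of the Golgi, ranged from 3.59 to 8.44 around a median of 4.73 in Rag2-/- tumors and from 3.86 to 5.54 around 5.0 in Rag2+/- tumors. Igtp, the regulatory IRG of the endoplasmic reticulum, ranged from 4.34 to 9.92 around 5.14 in Rag2-/- tumors and from 4.49 to 6.18 around 5.58 in Rag2+/- tumors. In each regulatory gene the lowest value came from S48, a Rag2-/- tumor, as it did in the 3 effectors, and the groups overlapped throughout.

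Iigp1 (ENSMUSG00000054072), on the plus strand of chr18:60376027-60392634, is an effector IRG known for disrupting the vacuole of Toxoplasma gondii. It ranged from 4.51 to 9.34 around a median of 5.57 in Rag2-/- tumors and from 4.70 to 6.40 around 5.99 in Rag2+/- tumors. Tgtp2 ranged from 3.49 to 7.65 around 4.40 in Rag2-/- tumors and from 4.13 to 5.62 around 4.64 in Rag2+/- tumors. Tgtp1 was the lowest of the 6 in all 19 tumors, ranging from 1.27 to 6.56 around 2.67 in Rag2-/- tumors and from 1.78 to 3.87 around 3.20 in Rag2+/- tumors. Tgtp1 and Tgtp2 together held 13.5 to 37.4 normalized FPKM in the 10 Rag2-/- tumors other than S51, 295 in S51, and 21.6 to 63.5 in the Rag2+/- tumors. The effectors thus showed the same picture as the regulators, with 1 tumor far above overlapping groups.

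Without S51 the order of the levels, which FPKM makes comparable between genes, was Irgm1, Iigp1, Igtp, Irgm2, Tgtp2 and Tgtp1. The places of Tgtp2 and Tgtp1 rest on the uncertain split of reads between these copies. Their sum had a median of 28.0 normalized FPKM over the 18 tumors. Irgm1 exceeded Iigp1 by 0.39 ± 0.46 log2 units (mean and SD of the differences within a tumor, n = 18 tumors) and was higher in 14 of 18. Irgm2 exceeded Tgtp2 by 0.25 ± 0.42 and Iigp1 exceeded Igtp by 0.24 ± 0.20, with the first gene higher in 15 of 18 tumors each. The SD gives the spread over tumors, and the mean differences were not tested. Igtp was above Irgm2 by 0.55 ± 0.22 and Tgtp2 above Tgtp1 by 1.80 ± 0.40, in 18 of 18 tumors each. In S51 the order changed. Igtp lay 1.04 log2 units above Irgm1 there, while in the other 18 tumors it lay between 1.14 below and 0.20 above, and it was higher in 1 of them. Among genes above the floor, Irgm1 stood at the 94.0th percentile in the median tumor other than S51 and Tgtp1 at the 56.7th, so all 6 were expressed at a moderate to high level in sarcomas of both genotypes.

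**Figure D2:**
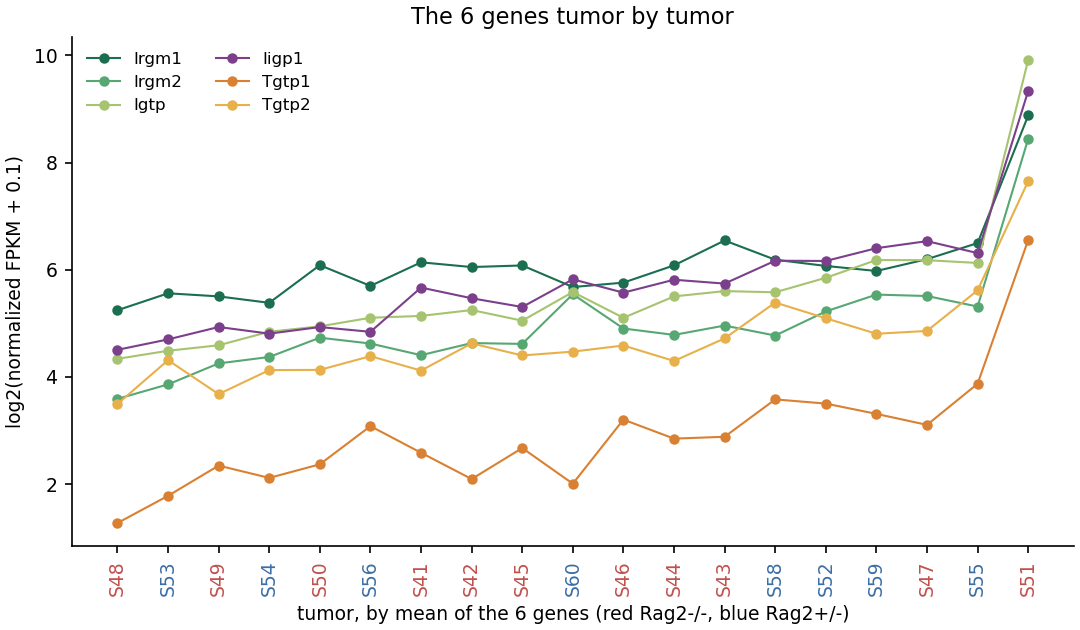
Level of the 6 genes (y axis, log2 of normalized FPKM + 0.1) in each tumor, ordered by the mean of the 6, with Rag2-/- library codes in red and Rag2+/- codes in blue; the lines join points of 1 gene. The mean rises from 3.74 in S48 to 5.62 in S55 and then to 8.46 in S51, and red and blue codes are mixed along the axis.

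No IRG passed the test between the genotypes. The differences below are Rag2-/- minus Rag2+/- on the log2 scale, from limma fitted across the 12826 genes with a mean above 0, with p-values adjusted by Benjamini-Hochberg over all of them. Of these genes 0 (0%) were called higher in Rag2-/- tumors and 4 (0.0312%) lower at an adjusted p under 0.05, and 6.74% were higher and 9.56% lower at an unadjusted p under 0.05. Over all 19 tumors 0 of the 6 IRGs reached either threshold. Irgm1 differed by 0.35 ± 0.34 (SE; 95% interval -0.35 to 1.05; limma, adjusted p = 0.529). Irgm2 differed by 0.079 ± 0.45, Igtp by 0.13 ± 0.53, Iigp1 by 0.15 ± 0.48 and Tgtp1 by -0.0033 ± 0.50, and Tgtp2 by -0.18 ± 0.40, with limma adjusted p-values of 0.793 to 0.997. The exact two-sided permutation test, which compares the difference in means with all 75582 relabelings of the tumors, gave unadjusted p-values of 0.408 for Irgm1 and 0.742 to 0.996 for the other 5. For Tgtp1 and Tgtp2 summed the difference was -0.14 (limma, adjusted p = 0.849). With S51 in the Rag2-/- group the 95% intervals ran from 0.784 to 2.08 times the Rag2+/- level for Irgm1, from 0.505 to 2.37 for Igtp and from 0.495 to 1.58 for Tgtp2.

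Leaving out S51 turned the sign of Irgm2, Igtp and Iigp1. Without it, 5 of the 6 IRGs were lower on average in Rag2-/- tumors, at -0.27 ± 0.25 for Irgm2, -0.30 ± 0.25 for Igtp, -0.20 ± 0.29 for Iigp1, -0.37 ± 0.31 for Tgtp1 and -0.48 ± 0.22 for Tgtp2, while Irgm1 was at 0.087 ± 0.17. Tgtp2 came nearest to a call, at 0.715 of the Rag2+/- level (95% interval 0.516 to 0.989; limma, unadjusted p = 0.0437, adjusted p = 0.146), and the exact permutation test over 43758 relabelings gave p = 0.0543. That 1 of the 6 was lower at an unadjusted p under 0.05 compares with 16.5% of the 12842 genes tested without S51, and 15.9% were higher. At an adjusted p under 0.05 there were 2 genes higher (0.0156%) and 5 lower (0.0389%), and 0 IRGs. In the 15 tumors of the published source data the 6 differences ran from -0.55 for Tgtp2 to 0.066 for Irgm1. Tgtp2 was again the 1 of 6 lower at an unadjusted p under 0.05, as were 11.1% of the 12877 genes tested there (95% interval -1.10 to -0.015; limma, unadjusted p = 0.0448, adjusted p = 0.223). At an adjusted p under 0.05 there were 6 genes higher (0.0466%) and 9 lower (0.0699%) in these tumors, and 0 IRGs. The median of the 6 moved from 0.10 with all tumors to -0.28 without S51, and that of all genes tested was 0.062 and 0.079. The 8 skeletal muscle genes were all lower on average in Rag2-/- tumors, with a median difference of -2.22 over all tumors and -2.63 without S51. At an unadjusted p under 0.05, 5 of 8 were lower over all tumors (9.56% of all genes), 8 of 8 without S51 (16.5%) and 3 of 8 in the 15 tumors (11.1%), and 0 were called after adjustment in any of these. With fewer cells of a type and less RNA per cell, a bulk tumor gives the same reading, and these cannot be told apart here.

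**Figure D3:**
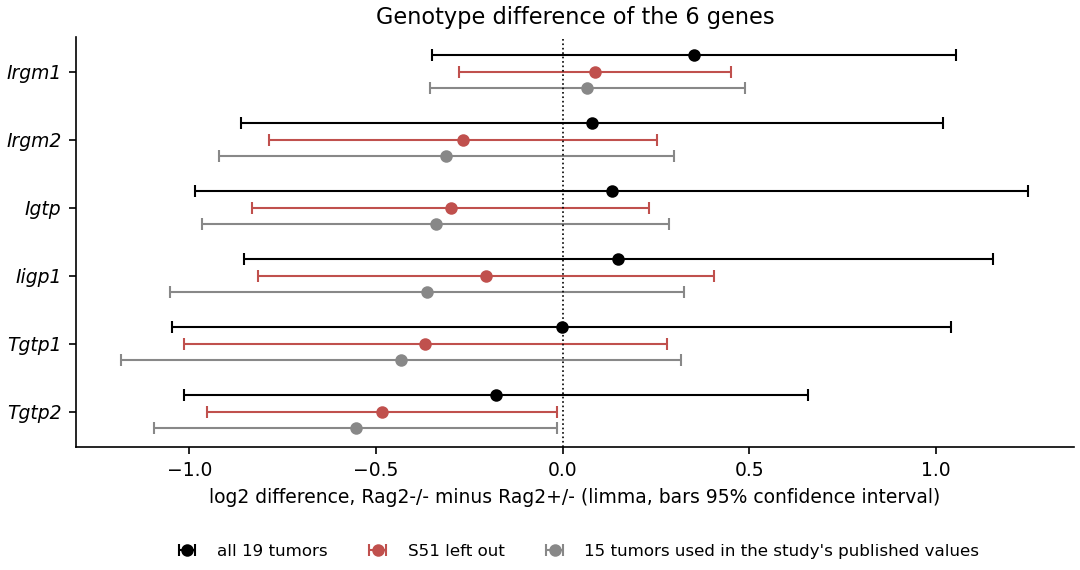
Difference of each gene between Rag2-/- and Rag2+/- tumors (x axis, log2, limma estimate with 95% confidence interval) over all 19 tumors (black), without S51 (red) and in the 15 tumors of the published source data (grey). The black intervals all span 0, the red and grey intervals of Tgtp2 end just below 0 at -0.015 each, and the estimates of Irgm2, Igtp and Iigp1 change sign when S51 is left out.

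The 6 genes varied together across tumors. Over all 19 tumors the 15 pairs had Pearson r from 0.89 to 0.98, a range that S51 helps to set, and without S51 from 0.59 to 0.95 with a median of 0.75. Spearman rho over the 18 tumors ran from 0.51 to 0.94. The closest pair without S51 was Igtp with Iigp1, at r = 0.95, although these genes lie on different chromosomes and share no 150-base window. Next came Irgm2 with Igtp, at r = 0.92, which overlap by 162 exonic bases. Tgtp1 with Tgtp2, whose reads can hardly be separated, followed Irgm2 with Iigp1 (r = 0.85) at r = 0.82. Irgm1 with Irgm2 was the loosest pair, at r = 0.59. The pairs share libraries and their scaling, and the coefficients are given as a description.

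Ifng and Irf1 of the interferon gamma axis were measured in the same tumors. Ifng, the cytokine itself, was barely detected, with a median of 7.0 estimated fragments per tumor and so a large counting error outside S51. It was listed at the floor in 3 of 11 Rag2-/- and 2 of 8 Rag2+/- tumors, reached at most -0.50 in the 18 tumors other than S51, in S49, and stood at 2.43, or 5.28 normalized FPKM, in S51. Irf1, an interferon-induced transcription factor that binds ISREs, was at 4.16 to 4.98 in the other 10 Rag2-/- tumors, 3.94 to 5.14 in the Rag2+/- tumors and 7.82 in S51. S51 was thus the highest tumor for both as well. Of its 9 T cell genes Cd3d, Cd3e, Cd3g, Cd5, Cd8a and Trac were at the floor, and Cd2 was at 0.90, Lck at 1.41 and Cd4 at -0.15, above 12, 9 and 1 of the other 18 tumors.

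Relations of the 6 IRGs with Ifng and Irf1 gave 12 correlations, with permutation p-values adjusted over the 12. No share of all genes tested is given for the same relations, so the counts of calls are not read as particular to the IRGs. Over all 19 tumors 12 of 12 passed an adjusted p of 0.05 by Pearson's r and 10 of 12 by Spearman's rho. Those with Irf1 ran from r = 0.86 to 0.92 and rho from 0.48 to 0.71 (adjusted permutation p from 0.00084 to 0.00324 for r and 0.00996 to 0.0462 for rho). Those with Ifng had r from 0.68 to 0.76 but rho from 0.19 to 0.58 (adjusted permutation p from 0.00254 to 0.0127 for r and 0.0228 to 0.425 for rho), and Irgm1 and Tgtp1 did not pass by rho.

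Over tumors of both genotypes the calls with Ifng depended on S51. Without it, r with Ifng fell to between 0.17 and 0.46 and passed in 0 of 6 genes (adjusted permutation p from 0.101 to 0.488), and without the 2 tumors farthest from the median of Ifng, S51 and S48, it was 0.030 to 0.38. S48 is 1 of 5 tumors tied at the floor of Ifng. With Irf1, r was 0.40 to 0.66 without S51 and passed in 5 of 6, all but Irgm2, by both measures (adjusted permutation p from 0.0383 to 0.123 for r). Without S51 and S53, the 2 farthest tumors, r with Irf1 was 0.25 to 0.60 and passed in 0 of 6 (adjusted permutation p from 0.0827 to 0.378). The calls were thus lost, while r changed little from its value without S51 alone in Irgm1 (0.56 to 0.52), Iigp1 (0.66 to 0.60), Tgtp1 (0.61 to 0.54) and Tgtp2 (0.54 to 0.59). Within the 11 Rag2-/- tumors, S51 included, r with Irf1 was 0.92 to 0.96 and passed in 6 of 6 by r and 0 of 6 by rho. Within the 10 Rag2-/- tumors other than S51, r was 0.31 to 0.64 with Irf1 and -0.11 to 0.13 with Ifng, and 0 of 12 passed. Within the 8 Rag2+/- tumors r was 0.48 to 0.84 with Irf1 and 0.46 to 0.84 with Ifng, and 0 of 12 passed the exact permutation test (lowest adjusted p = 0.0524). The difference between the genotypes in these relations was not tested, and none of these counts has a share of all genes beside it.

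**Figure D4:**
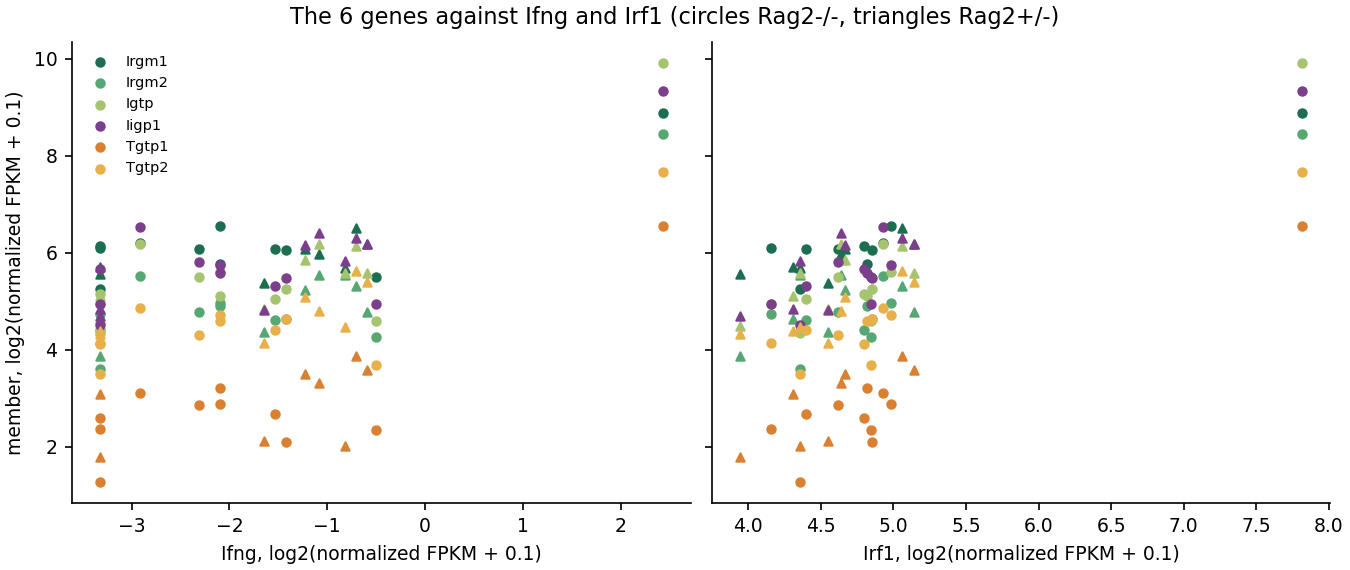
Level of each of the 6 genes (y axis) against Ifng and Irf1 (x axes, all log2 of normalized FPKM + 0.1) in 19 tumors, circles for Rag2-/- and triangles for Rag2+/-. S51 is the separate column of points at the right of each panel, at 2.43 for Ifng and 7.82 for Irf1; the remaining tumors lie between 3.94 and 5.14 for Irf1, and 5 of them are stacked at -3.32 for Ifng.

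Guanylate-binding proteins (GBPs), a related family of interferon-induced GTPases that attack the same vacuoles, were often among the genes whose level followed the IRGs most closely. When the 5 other genes with the highest Pearson r over 19 tumors were taken for each of the 6, GBPs filled 20 of the 30 places. These places held 10 distinct genes, 5 of them GBPs. Gbp6 was on all 6 lists, with r from 0.93 for Irgm1 to 0.98 for Igtp. The IRG gene Gm12250 (Irgb10) was listed for Irgm1 (r = 0.95) and Iigp1 (r = 0.94). Tapbpl, a homologue of the peptide-loading factor tapasin, was listed for Irgm2, Igtp, Iigp1 and Tgtp1, and Cd274, which encodes the checkpoint ligand PD-L1, for Irgm2 and Igtp. Without S51, 12 of the 30 places were kept and GBPs filled 11, as 6 of the 22 distinct genes. Gbp6 then remained the closest to Igtp (r = 0.93), Iigp1 (r = 0.92) and Tgtp1 (r = 0.85), and Gbp7 to Irgm1 (r = 0.87). For Irgm2 the closest was Prrg2 (r = 0.86), and Gbp6 (r = 0.84) was the 1 GBP on its list. For Tgtp2, Ms4a4b, the closest (r = 0.87), and the T cell gene Cd4 (r = 0.80) entered the list, beside Cxcl9 (r = 0.84). Means of cell type genes went with the members to degrees that turned in part on S51. That of the 9 T cell genes, which separates the genotypes entirely, had r = 0.67 with Tgtp2 and 0.10 with Irgm1 over the 18 tumors without S51, but 0.21 and -0.14 over all 19. That of the dendritic cell genes had r = 0.62 with Irgm2 without S51 and 0.18 with it. That of the NK cell genes had r = 0.60 with Irgm1 and 0.52 with Iigp1 without S51, and 0.46 and 0.47 with it. Skeletal muscle genes had r = 0.62 with Irgm2, 0.47 with Igtp and -0.017 with Irgm1 without S51, and 0.58, 0.48 and 0.27 with it. These are a description over shared libraries, and the part of these cells in the genotype differences was not tested.

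The 10 further genes of the IRG family did not move as 1 block. Ifi47 (Irgd) and Gm12250 followed the pattern of the 6 in S51, at 7.57 and 7.68 against at most 5.87 and 4.82 elsewhere. 9930111J21Rik1 and 9930111J21Rik2 did not, at 2.81 and 3.24, below the highest of the other tumors at 3.06 and 3.52. Between the genotypes 0 of the 9 tested were called. Gm4951 differed by 0.84 ± 0.31 and 9930111J21Rik1 by 0.78 ± 0.29, both at a limma adjusted p of 0.301 and an unadjusted p under 0.05, the 2 of 9 to be set against 6.74% of all genes. Without S51 they were at 0.68 ± 0.26 and 0.74 ± 0.30 (limma, adjusted p = 0.105 and 0.118), again 2 of 9 at an unadjusted p under 0.05, beside 15.9% of all genes. F830016B08Rik and Gm4841 spread most. Gm4841 ran from -0.44 to 6.94 in the 18 tumors and stood at 9.99 in S51, and F830016B08Rik ran from 1.23 to 6.90 and stood at 8.96. With all tumors the Rag2-/- minus Rag2+/- difference was -2.02 for Gm4841 and -1.46 for F830016B08Rik (limma, unadjusted p = 0.111 and 0.114). Without S51 it was -2.81 and -2.03, both at an unadjusted p under 0.05 as were 16.5% of all genes. Neither gene was called in either fit. Their levels went with the mean of the skeletal muscle genes (r = 0.86 for Gm4841 and 0.92 for F830016B08Rik over the 18 tumors, and 0.84 and 0.90 over all 19), and those means were at 12.85 in S51. The part of muscle content in these genes was not tested. Irgc1, a testis member of the family, was below the filter, and Irgq, a divergent member, was at 2.23 to 3.56 in all tumors.

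The other interferon gamma responsive lists were high in S51, as the 6 IRGs were, and had no call between the genotypes. S51 was the highest tumor in 8.2% of the 12826 genes tested and exceeded the next by more than 1 log2 unit in 1.04%. Of the 11 GBPs, S51 was highest in 11 and exceeded the next tumor by more than 1 log2 unit in 10, with Gbp10 at 7.88 against at most 3.26 and Gbp6 at 8.81 against at most 5.38. Among the GBPs that passed the filter it was so in 8 of 9, and among the interferon gamma targets in 8 of 12. Of 14 interferon gamma targets S51 was highest in 11 and by more than 1 log2 unit in 10, including Nos2, the inducible nitric oxide synthase, at 6.64 against at most 1.99, Cd274 at 7.45 against at most 4.16, and the chemokine gene Cxcl9 at 8.72 against at most 6.43. Cd74, H2-Ab1 and Ciita, which serve MHC class II, were not highest in S51. Socs1, a feedback inhibitor of the pathway, was at 6.33 against at most 4.08, while the receptor genes Ifngr1 and Ifngr2 were at 5.42 and 5.24, inside the range of the other tumors. Between the genotypes 0 of the 9 GBPs and 0 of the 12 interferon gamma targets tested were called, and medians of the lists were 0.27 and 0.13 with S51 and -0.081 and -0.041 without it. Of 9 genes tested in the axis itself, 1 was higher and 2 were lower at an unadjusted p under 0.05, where the table has 6.74% and 9.56%, and 0 were called. Without S51, 0 were higher and 3 lower (15.9% and 16.5% of all genes), and again 0 were called. Ifngr2 was among the lower ones in both, at -0.31 ± 0.11 with all tumors and -0.35 ± 0.11 without S51 (limma, adjusted p = 0.301 and 0.0941).

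Genes of the type I interferon response behaved otherwise. All 17 tested were higher on average in Rag2-/- tumors, with a median of 0.89 beside 0.062 for all genes tested, 15 of 17 at an unadjusted p under 0.05, where the whole table has 6.74%, and 0 of 17 after adjustment. Ifi44 was higher by 1.33 ± 0.51 and Usp18, which restrains the type I receptor, by 1.18 ± 0.37 (limma, adjusted p = 0.301 for both). Without S51 the median was 0.86 and 16 of 17 passed the unadjusted threshold, beside 15.9% of all genes, and again 0 after adjustment. In S51 these genes lay less far above the other tumors than the IRGs did. S51 was the highest tumor in 9 of the 18, beside 8.2% of all genes tested, and their mean was 5.46 there against at most 5.40 in the other tumors. Of the 18, Ifit3 and Rsad2 exceeded the next tumor by more than 1 log2 unit, beside 1.04% of all genes tested. Ifi44 at 4.81 and Ddx58 at 4.53 were within the range of the others. The median of the 17 tested lay 0.95 above that of the other tumors, whereas the median of the 6 IRGs lay 3.70 above. All genes tested had a median of -0.034 on that scale. The mean of 7 NK cell genes ranged from -0.25 to 1.70 in Rag2-/- and from -1.98 to 1.07 in Rag2+/- tumors, and counts of those higher at an unadjusted p under 0.05 were 3 of the 5 tested over all tumors, 3 of 5 without S51 and 3 of 5 in the 15 tumors of the source data. The mean of 9 macrophage genes ranged from 6.16 to 7.85 and from 4.96 to 6.76, and 1 of 9 was higher at that threshold over all tumors, 2 of 9 without S51 and 0 of 9 in the 15 tumors. Of 7 mesenchymal genes, 0 were higher at that threshold over all tumors, 4 without S51 and 3 in the 15 tumors. Of 5 neutrophil genes tested it was 0 in each. Of all genes, 6.74%, 15.9% and 11% were higher at that threshold in these fits. None of the NK cell, macrophage, mesenchymal and neutrophil genes was called after adjustment in any of them, and their part in these differences was not tested.

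**Figure D5:**
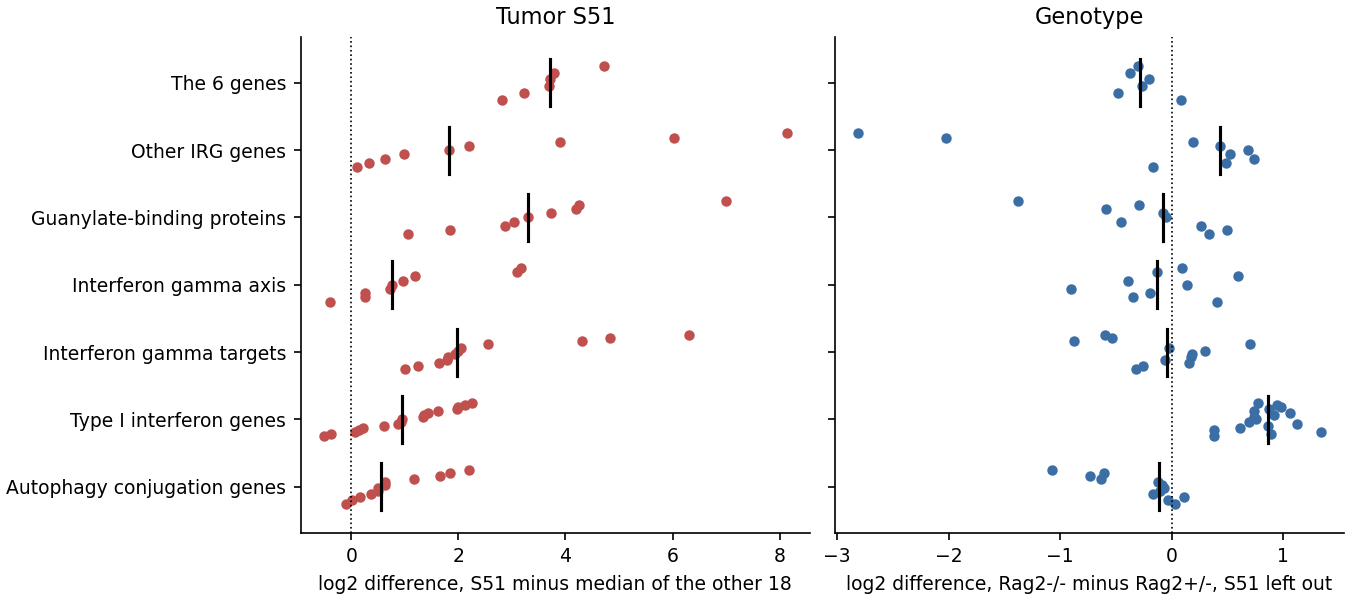
Tested genes of 7 lists (1 point each, black bars at the median of the list). The left panel gives the log2 level in S51 minus the median of the other 18 tumors, with medians of 3.70 for the 6 IRGs, 3.31 for GBPs and 0.95 for type I interferon genes; the right panel gives the log2 difference between Rag2-/- and Rag2+/- tumors without S51, with medians of -0.28, -0.081 and 0.86.

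Among 12 genes of the autophagy conjugation machinery, whose ubiquitin-like proteins direct IRGs to their targets, 0 were called between genotypes. Over all tumors 2 were lower at an unadjusted p under 0.05, where the table has 9.56%. They were Gabarapl2, an ubiquitin-like protein of the Atg8 family, at -0.51 ± 0.22, and Sqstm1, a cargo receptor, at -0.57 ± 0.26 (limma, adjusted p = 0.301 and 0.304). Atg5 and Atg7, the core conjugation genes, differed by 0.018 ± 0.11 and -0.041 ± 0.20. Without S51, 4 of the 12 were lower at that threshold, beside 16.5% of all genes, namely these 2 with Map1lc3a at -1.07 ± 0.39 and Map1lc3b at -0.60 ± 0.20. In S51 none of the 12 exceeded the next tumor by more than 1 log2 unit, and Atg5 at 3.61 and Atg7 at 2.89 were inside the range of the others. Map1lc3a, Map1lc3b, Gabarapl2 and Sqstm1 were nonetheless well above their median tumor in S51, at 8.16, 7.70, 6.15 and 9.25 against 5.96, 5.86, 4.99 and 7.59.

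The cell type genes of S51 were as follows. Its muscle mean of 12.85 was above 15 of the other 18 tumors and its mesenchymal mean of 5.38 below all 18, where the lowest other tumor was at 6.02. Its endothelial mean of 3.04 was also below all 18. The macrophage mean of 6.38 lay above 9 of 18, the NK cell mean of 1.47 above 15 and the neutrophil mean of 3.10 above 17. Fcgr1, a high-affinity Fc receptor of macrophages, was highest in S51, at 6.64 against at most 6.14. When the muscle mean was added to the fit as a covariate, the genotype differences of the 6 IRGs became 0.68, 0.76, 0.82, 0.71, 0.58 and 0.19 for Irgm1, Irgm2, Igtp, Iigp1, Tgtp1 and Tgtp2 with all tumors, and 0.12, 0.15, -0.014, 0.029, -0.13 and -0.47 without S51, and 0 of the 6 were called in either fit. The part of muscle content and of the other cells in the level of S51 was not tested. One fragment per kilobase was worth 0.066 normalized FPKM in S51. Only S41, at 0.2086, and S56, at 0.0844, were higher, and the other tumors lay between 0.0342 and 0.0566. The part of this scaling in the level of S51 was not tested.

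Gm12185, singled out after its values were seen because its promoter window held the GAS and ISRE letters in the same arrangement, was at 5.81 in S51 against -1.81 to 2.66 in the other 18 tumors. Its difference between the genotypes was -1.02 ± 0.78 with all tumors and -1.58 ± 0.49 without S51, not called in either (limma, adjusted p = 0.445 and 0.0941), and its 223 exonic bases in common with Tgtp1 leave some of its reads uncertain.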

How the data were processed

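The authors deposited 1 table of log2 values for 19 tumors and 48795 Ensembl genes, of upper-quartile normalized FPKM plus 0.1, with no counts. Their methods name Array Studio with mouse B38 and Ensembl.R86 models, and the submitters' processing notes name Trimmomatic 0.36, STAR 5.5.4b, HTSeq and mm10; which of them made the table, and whether strand was used, is not given in the sources used here. Identifiers were matched to symbols (48349 of 48795). Groups came from the genotype labels; samples of a group came from separate mice as far as the labels tell. 0 value columns were left unmatched.

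Genes with a mean above 0 were fitted with limma 3.58.1 (R 4.3.3, trend), by genotype with no covariate, and adjusted by Benjamini-Hochberg; the script was tested on simulated data. Exact permutation tests counted relabelings with a difference in means at least as large in size. Correlations used 100000 permutations, or all orders for 8 tumors, in Python 3.11.15 with scipy 1.17.1. Depth was estimated from genes with 1 transcript, whose low values fall on steps; 79.7% to 89.3% of them lay within 0.05 of a whole number of fragments. Sequences are from RefSeq and gene models from GENCODE, both GRCm38. The genes named are the 6 IRGs, the genes of the lists, and for each IRG the 5 genes most like it. Members and lists were chosen with earlier results of these data known. The results without S51 in lists, Gm12185, correlations and neighbours were added after seeing the data. Alternatives were the filter, pseudocount, scaling, trend, covariates, tumors left out and the exact test. 1 gene of the planned correlations and of the interferon gamma axis is not reported here.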

Additional observations from a re-analysis of the deposited data

Results flagged for a closer look

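In the 8 Rag2+/- tumors, the highest and lowest values of 18 genes (the 6 IRGs, the 10 further IRG genes, Ifng and Irf1) were compared with the rest of the group by Dixon's test. The test flagged 1 of the 18 genes. It flags about 1 in 20 groups by chance, so this count is near what chance alone gives. Irgq, a divergent IRG family member, was at 3.56 in S56 against at most 2.73 in the other 7, a gap of 0.685 of the whole range. S56 is 1 of the 4 tumors not among the published 15. The 11 Rag2-/- tumors were not screened in this way, and S51 is described in the report.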

How the results depend on the processing

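No IRG was called under any of the 32 alternatives run for each (33 for Tgtp1 and Tgtp2). The lowest adjusted p was 0.146, for Tgtp2 without S51. Leaving out 1 tumor at a time gave 0.087 to 0.45 for Irgm1, -0.27 to 0.22 for Irgm2, -0.30 to 0.26 for Igtp, -0.20 to 0.28 for Iigp1, -0.37 to 0.16 for Tgtp1 and -0.48 to -0.059 for Tgtp2. The lowest of each came without S51; Irgm2 at -0.070 and Igtp at -0.0092 also turned without S53, and Tgtp1, at -0.0033 with all tumors, was above 0 when any 1 of 12 tumors was left out. In the 15 published tumors Irgm2, Igtp and Iigp1 were at -0.31, -0.34 and -0.36. With muscle as covariate Tgtp1 and Tgtp2 turned to 0.58 and 0.19, and without S51 too Igtp was at -0.014; with pseudocount 1 Tgtp1 was at 0.015.

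Genes called higher were 0, but 6 in the 15 tumors; genes called lower were 4, but 9 in the 15 tumors, 34 with no filter, 0 with a mean above 2, 2 with the muscle covariate and 0 by the exact test. Leaving out 1 tumor gave 0 to 2 higher (2 without S51, and 1 without S46, S48 or S58) and 3 to 7 lower (7 without S56). The cause was not tested.

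Relations with Ifng and Irf1 called by r were 12 of 12, but 0 without the 2 farthest tumors, 6 within Rag2-/-, 0 within Rag2+/-, 0 in the 15 tumors, 5 without S51 and 0 within Rag2-/- without S51. By rho they were 10, but 5 in the 15 tumors, 5 without S51 and 0 in each of the others; pseudocount 1 changed neither count. Within Rag2-/- without S51, r with Ifng turned to -0.095 for Irgm1, -0.11 for Igtp and -0.071 for Iigp1. No paired analysis was possible because the replicate numbers are only the order of accession.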
